A study of Homo sapiens with 6 samples.

Results

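The genes described here encode 9 regulators of G protein signalling, RGS1, RGS2, RGS3, RGS10, RGS13, RGS14, RGS16, RGS18 and RGS19. They were followed through every probe set whose symbol in the platform annotation is exactly one of these names, which gave 21 of 54613 probe sets that are not controls. RGS1, RGS3, RGS10, RGS13, RGS14 and RGS16 had 3 probe sets each, and RGS2, RGS18 and RGS19 had 1 each. The samples were untreated RL cells, a human B lymphoid line (ATCC CRL-2261) with the t(14,18)+ genotype, and all groups shared that line and genotype. In 3 of them the cells had grown for 10 days as MALC, multicellular aggregates of lymphoma cells, and in the other 3 they were collected from suspension culture during exponential growth. The labels give no culture time for suspension, so culture form cannot be told apart from any difference in culture time or growth phase. Each sample was read on 1 Affymetrix U133 Plus array, so precision is limited by how many arrays there are. Nothing in the labels says that the samples of a group came from separate cultures, so the p-values reflect the spread among these 3 and 3 samples alone, and that spread may be technical.

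G protein-coupled receptors act by loading GTP onto the alpha subunit of a heterotrimeric G protein. RGS proteins speed up GTP hydrolysis by that subunit, which shortens the signal. In B cells they are best known for limiting the response to the chemokines that place cells in lymphoid follicles, and RGS1 and RGS13 are the members most studied there. RGS1, RGS2, RGS3, RGS13, RGS16 and RGS18 belong to the small R4 subfamily, RGS10 and RGS14 to R12, and RGS19 to RZ. In the RefSeq gene order of chromosome 1, RGS1, RGS13 and RGS2 are direct neighbours among protein-coding genes, with RGS21 and RGS18 on the far side of RGS1. RGS16 lies elsewhere on that chromosome, next to RGS8.

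Within this family, RGS1 was several-fold higher in MALC on both of its probe sets that could be tested. RGS16 was about 1.5-fold lower on both of its tested probe sets. RGS3 was 1.42-fold higher on its brightest probe set and did not pass on its other tested one. RGS13, next to RGS1 on the chromosome, did not pass on any of its 3. The difference between neighbours was not tested. RGS3, for which RefSeq lists 5 starts, is left out of the windows below. Upstream windows are shown for RGS1 and RGS16, which carry calls, for RGS13, which lies beside RGS1, and for RGS2, which lies beside RGS13. Each is the 250 bases before the gene's start in RefSeq (GRCh38.p14), 5′ to 3′ on the gene's own strand, with matches to 6 searched motifs in capitals.
RGS1, chr1:192575523-192575772, plus strand: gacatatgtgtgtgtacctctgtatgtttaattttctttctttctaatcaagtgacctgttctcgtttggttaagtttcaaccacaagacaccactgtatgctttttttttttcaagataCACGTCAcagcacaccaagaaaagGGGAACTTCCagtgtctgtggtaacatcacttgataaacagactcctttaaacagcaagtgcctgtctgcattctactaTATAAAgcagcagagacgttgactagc
RGS16, chr1:182604390-182604639, minus strand: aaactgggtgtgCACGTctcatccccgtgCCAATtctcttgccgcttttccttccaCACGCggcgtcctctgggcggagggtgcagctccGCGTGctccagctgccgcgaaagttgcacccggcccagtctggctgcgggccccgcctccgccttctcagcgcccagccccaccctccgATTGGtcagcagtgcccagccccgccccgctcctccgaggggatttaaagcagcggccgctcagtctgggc
RGS13, chr1:192635897-192636146, plus strand: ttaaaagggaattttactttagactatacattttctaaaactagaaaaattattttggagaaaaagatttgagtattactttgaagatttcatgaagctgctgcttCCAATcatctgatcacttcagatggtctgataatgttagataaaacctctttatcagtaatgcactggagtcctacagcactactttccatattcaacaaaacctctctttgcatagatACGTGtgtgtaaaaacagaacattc
RGS2, chr1:192808789-192809038, plus strand: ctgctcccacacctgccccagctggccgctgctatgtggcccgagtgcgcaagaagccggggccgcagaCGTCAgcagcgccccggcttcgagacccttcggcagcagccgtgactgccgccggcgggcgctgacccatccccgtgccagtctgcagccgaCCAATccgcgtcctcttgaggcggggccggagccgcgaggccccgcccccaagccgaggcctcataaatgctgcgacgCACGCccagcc

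The motifs, searched on both strands, were the TATA box TATAAA, the CCAAT box, the hypoxia response element core ACGTG with its variant GCGTG, the cyclic AMP response element portion TGACG, plus the NF-kB consensus, which is given by name only. They were chosen with the expression changes known. The RGS1 window held TATAAA with its first base 27 bases before the start, the NF-kB consensus at 106, and an ACGTG at 130 whose bases overlap those of a TGACG at 128. RGS16 had CCAAT at 221 and 71, ACGTG at 238, and GCGTG at 194 and 160. In the RGS13 window CCAAT stood at 144 and ACGTG at 25, and RGS2 had TGACG at 181, CCAAT at 89 and GCGTG at 11. Among all 35114 upstream windows of this length in the RefSeq table, 10.7% held TATAAA, 32% CCAAT, 18.5% ACGTG, 32.2% GCGTG, 21.2% TGACG and 9.96% the NF-kB consensus. GC content was 39.2% in the RGS1 window and 32% in that of RGS13, against 68.4% for RGS16 and 72.8% for RGS2. A match is a description of letters and not evidence of binding.

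**Figure D1:**
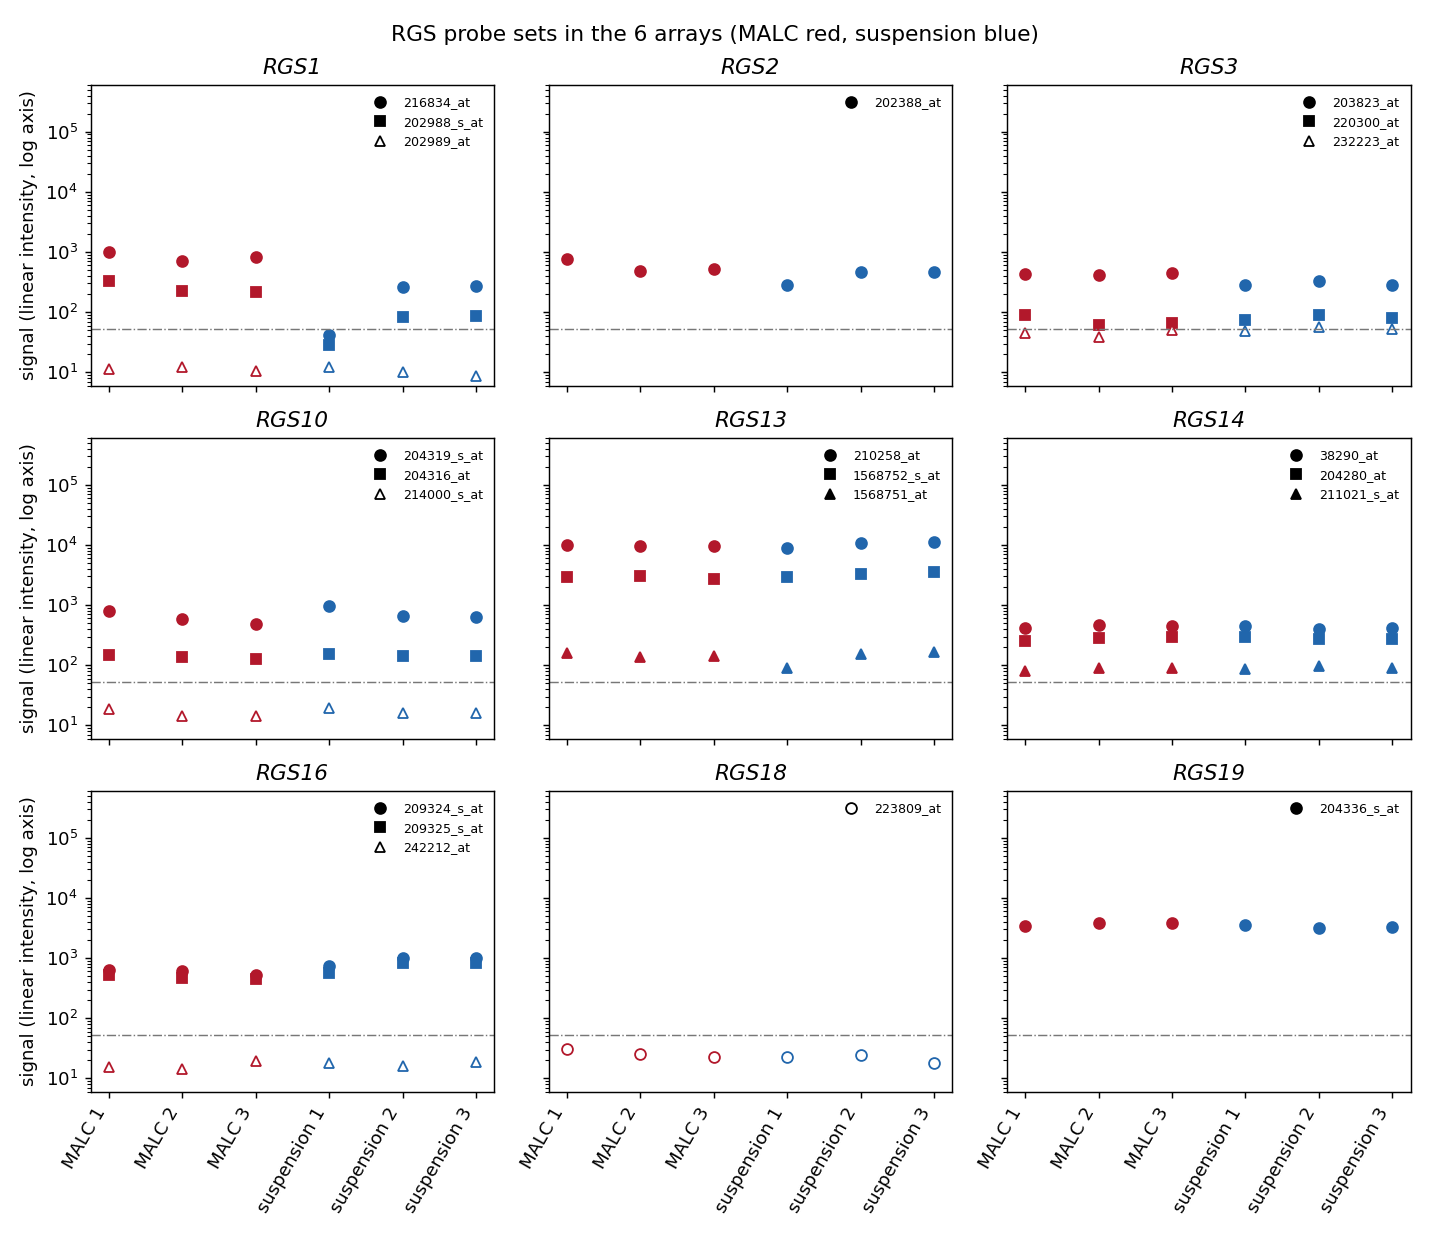
Signal of each RGS probe set (linear intensity, log axis) in each array, with MALC in red and suspension in blue. Points stand for single arrays, shapes for probe sets, open symbols for probe sets under the filter, and the dash-dot line for the filter's signal of 53.4. The RGS1 probe sets 216834_at and 202988_s_at are lowest in suspension 1, and RGS13 210258_at is similarly bright in all 6 arrays.

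Of the 21 probe sets, 16, from 8 of the 9 genes, had a mean log2 signal at or above the 40th percentile of all probe sets (a signal of 53.4) and were tested with limma. Of these 16, 3 were higher and 2 lower in MALC at an adjusted p under 0.05, 31.2% of those tested, and 11 did not pass. The background was high: 41.7% of all 32768 probe sets tested were called, 21.2% higher and 20.4% lower. The share of members called is not above the background, and single members are described below by the size of their change. Their median log2 change was −0.03, beside −0.04 over all probe sets tested. MALC and suspension signals did not overlap in 6 of the 16, or 37.5%, against 56.1% of all probe sets tested. A probe set reads signal per array, in which fewer cells carrying a transcript and less transcript per cell cannot be told apart.

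RGS1 restrains signalling by chemokine receptors in lymphocytes. Its brightest probe set, 216834_at, had signals of 983, 701 and 827 in MALC 1, 2 and 3, against 42.4, 260 and 268 in suspension 1, 2 and 3. Every MALC array lay above every suspension array, and suspension 1 lay far below the other two. The log2 change was 2.35 ± 0.56 (SE), a 5.09-fold rise (means 837 ± 142 in MALC and 190 ± 128 in suspension, SD, n = 3 each, limma adjusted p = 0.0123). Only 0.137% of all probe sets tested had a larger log2 change. The second probe set, 202988_s_at, read 332, 227 and 217 in MALC and 28, 83.8 and 87.1 in suspension. It too was lowest in suspension 1, where both probe sets lay under the filter's 53.4, and it rose 3.52-fold (log2 change 1.81, 95% confidence interval 1.06 to 2.57, adjusted p = 0.00377). The third, 202989_at, stayed between 8.76 and 12.5 in all 6 arrays, under the filter, and was not tested.

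The size of the RGS1 rise depended on the arrays numbered 1, more on suspension 1 than on MALC 1. Between the MALC and the suspension array of the same number, 216834_at differed by 4.10 on the log2 scale for number 1, by 1.38 for number 2 and by 1.57 for number 3. For 202988_s_at these differences were 2.98, 1.28 and 1.18. Without suspension 1 the log2 change of 216834_at was 1.60 (limma adjusted p = 0.000716), without MALC 1 it was 2.23, and without both it was 1.48. For 202988_s_at the values were 1.41, 1.63 and 1.23. The rise was thus present within each number and passed in every alternative in which the probe set was tested.

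RGS16, a member that acts on the Gi and Gq classes of alpha subunit, went the other way. Probe set 209324_s_at had signals of 626, 610 and 531 in MALC, against 743, 1009 and 1012 in suspension. The groups did not overlap, and suspension 1 was the suspension array nearest to MALC. Its level in MALC was 0.65 of that in suspension (log2 change −0.62 ± 0.13 SE, means 589 ± 51.2 in MALC and 921 ± 154 in suspension, SD, n = 3 each, limma adjusted p = 0.00806). Probe set 209325_s_at gave 533, 460 and 441 in MALC and 562, 835 and 818 in suspension. Its log2 change of −0.59 (95% confidence interval −0.96 to −0.23, adjusted p = 0.019) lay close to that of its partner. About 5.12% of all probe sets tested fell further than 209324_s_at, so the size of the fall was less extreme than that of the RGS1 rise. The third probe set, 242212_at, lay between 14.6 and 19.5 and was not tested.

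The RGS16 fall was also uneven between sample numbers, in the opposite sense to RGS1. The difference of 209324_s_at was −0.24 on the log2 scale for number 1, −0.71 for number 2 and −0.91 for number 3, and that of 209325_s_at was −0.07, −0.84 and −0.87. Without suspension 2 and suspension 3, an alternative chosen after seeing the data, both calls were lost (log2 changes −0.33 and −0.23, adjusted p = 0.141 and 0.284). The 209325_s_at call was also lost without MALC 2 (adjusted p = 0.0689), MALC 3 (0.0714), suspension 2 (0.0674) or suspension 3 (0.0689). That of 209324_s_at passed when any single array was left out.

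**Figure D2:**
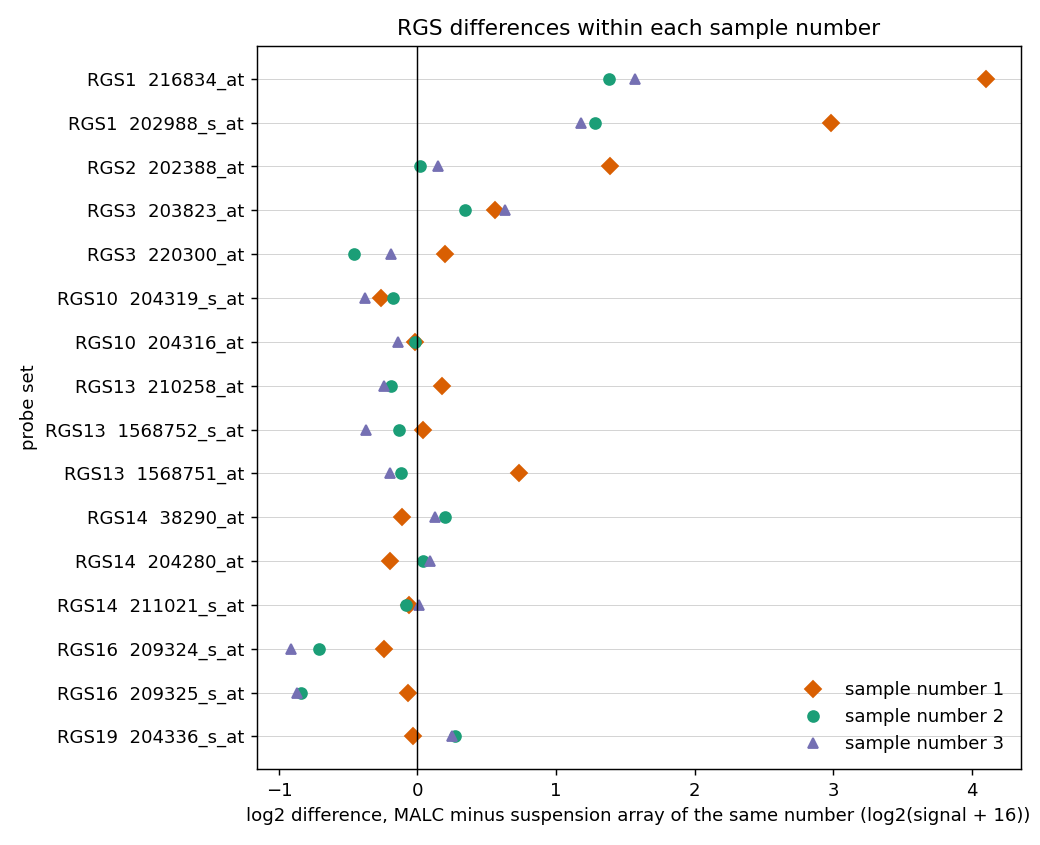
Log2 difference between the MALC and the suspension array that share a sample number, for the 16 tested RGS probe sets (horizontal axis, log2(signal + 16)). Diamonds stand for number 1, circles for number 2 and triangles for number 3. RGS1, RGS2 and RGS13 have their highest difference in number 1, whereas the RGS16 probe sets are furthest below 0 in numbers 2 and 3.

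RGS3, an R4 member with short and long isoforms, changed on 1 of its 3 probe sets. The brightest, 203823_at, had signals of 432, 419 and 442 in MALC and 288, 328 and 280 in suspension, and its replicates lay close together in both groups. It rose 1.42-fold (log2 change 0.51 ± 0.081 SE, limma adjusted p = 0.00232) and passed in all 17 alternatives, with log2 changes of 0.44 to 0.57. Probe set 220300_at read 89.4, 61.1 and 67.1 in MALC and 75.5, 89.8 and 78.9 in suspension, so its groups overlapped (log2 change −0.15, adjusted p = 0.349). It passed as lower without MALC 1 (log2 change −0.28, adjusted p = 0.0321). The dim 232223_at lay between 38.5 and 50.8 in MALC and between 49.4 and 57.6 in suspension and was not tested.

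The log2 ratio of 203823_at over 220300_at within an array was 2.09, 2.49 and 2.46 in MALC 1, 2 and 3, against 1.73, 1.70 and 1.64 in suspension. Every MALC array had a higher ratio than every suspension array, a difference that was not tested. RefSeq lists 5 separate starts for RGS3, against 1 each for RGS1, RGS13 and RGS16, and which transcripts each probe set reads was not analysed here.

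RGS2, which acts mainly on Gq, has 1 probe set, 202388_at, with signals of 770, 480 and 519 in MALC and 283, 472 and 465 in suspension. The lowest MALC array lay just above the highest suspension array, and the 2 arrays numbered 1 held the extremes. The log2 change of 0.52 did not pass (95% confidence interval −0.02 to 1.07, limma adjusted p = 0.109), nor did it in any of 17 alternatives. Within number 1 the difference was 1.39 on the log2 scale, and within numbers 2 and 3 it was 0.02 and 0.15. The interval includes both no change and a rise of about the size seen for RGS3 203823_at.

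RGS13, a small R4 member abundant in germinal centre B cells, was bright in both culture forms. Probe set 210258_at had signals of 10023, 9544 and 9511 in MALC and 8866, 10873 and 11262 in suspension. Suspension held both the lowest and the highest value, and the log2 change of −0.08 did not pass (95% confidence interval −0.29 to 0.12, limma adjusted p = 0.456). The second probe set, 1568752_s_at, averaged 2916 ± 151 in MALC and 3245 ± 330 in suspension (SD, n = 3 each, log2 change −0.15, adjusted p = 0.194). The third, 1568751_at, averaged 148 ± 12.8 in MALC and 137 ± 39.4 in suspension, and its log2 change of 0.14 did not pass either (adjusted p = 0.581). On all 3 probe sets suspension 1 was the lowest of the suspension arrays. Without suspension 1 the first and second passed as slightly lower in MALC, by −0.19 and −0.23 on the log2 scale (adjusted p = 0.0115 and 0.0341), and the third turned to −0.10 without passing. Without suspension 2 and suspension 3 the third passed as higher (log2 change 0.60, adjusted p = 0.0307). The interval of 210258_at excludes a change of the size measured for either tested RGS1 probe set.

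**Figure D3:**
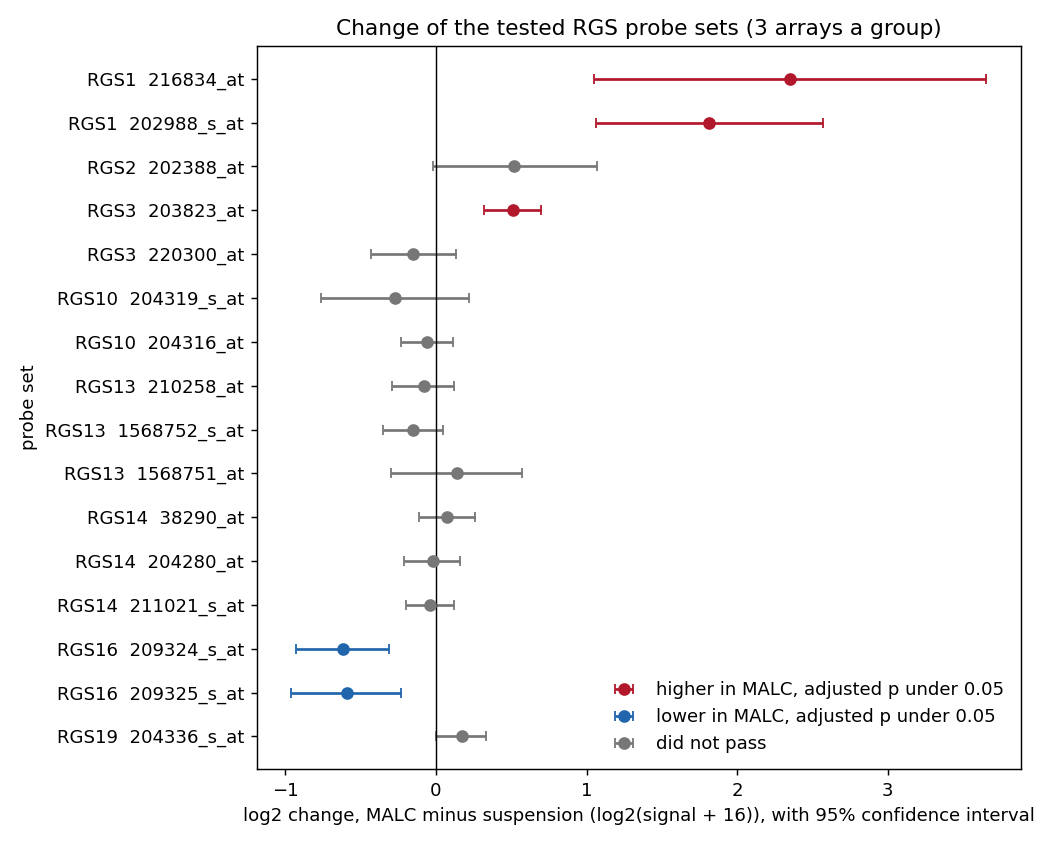
Log2 change (MALC minus suspension, log2(signal + 16)) of the 16 tested RGS probe sets with the 95% confidence interval from limma (n = 3 arrays each). Red marks probe sets higher and blue those lower in MALC at an adjusted p under 0.05, and grey those that did not pass. The RGS1 intervals are the widest and lie above 1, and the RGS13 and RGS14 intervals span 0.

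Neither R12 member passed. RGS10, which acts on Gi, had signals of 789, 577 and 480 in MALC and 949, 654 and 628 in suspension on 204319_s_at. The groups overlapped because the arrays numbered 1 were the highest of both groups, yet MALC was the lower of the pair in each number, by −0.26, −0.18 and −0.38 on the log2 scale. The log2 change of −0.27 had a limma adjusted p of 0.33, which became 0.0253 once same-numbered arrays were treated as a block. A second probe set, 204316_at, spanned 129 to 150 in MALC, against 140 to 152 in suspension (log2 change −0.06, adjusted p = 0.52, and 0.471 with the block). The third, 214000_s_at, lay between 14.1 and 19.7 and was not tested.

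RGS14, which binds Gi subunits and small GTPases of the Ras family, gave small differences on all 3 probe sets. The brightest, 38290_at, read 412, 468 and 452 in MALC and 444, 405 and 412 in suspension, which overlapped (log2 change 0.07, adjusted p = 0.481). Its other probe sets, 204280_at and 211021_s_at, had log2 changes of −0.02 and −0.04 (adjusted p = 0.838 and 0.655). The 95% confidence intervals of the 3 together reached from −0.21 to 0.26, so changes as large as the RGS16 fall lie outside them.

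RGS19, the RZ member also known as GAIP, which acts on Gi, had signals of 3450.5, 3767 and 3889.9 in MALC and 3523, 3116 and 3262 in suspension. Only MALC 1 fell below a suspension array. The log2 change of 0.17 did not pass (95% confidence interval 0.001 to 0.33, limma adjusted p = 0.0975). It passed without MALC 1 (0.21, adjusted p = 0.0287) or suspension 1 (0.21, adjusted p = 0.0462) and after quantile normalization (adjusted p = 0.0427). RGS18, a member known from platelets and other blood cells, was dim throughout: its probe set 223809_at read 31, 25.2 and 22.8 in MALC and 22.3, 24.9 and 18.3 in suspension. Those values lie under the filter, overlap and were not tested.

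Array 1 of each group stood apart from arrays 2 and 3, which touches the values of RGS1, RGS2, RGS10, RGS13 and RGS16 above. Across the tested probe sets, the Pearson correlation between arrays 2 and 3 reached 0.9976 in MALC and 0.9983 in suspension, whereas array 1 gave 0.9908 and 0.9919 with the others of MALC and 0.9913 and 0.9919 with those of suspension. Signal quartiles lay close together in all 6 arrays (medians 80.6 to 81.5). ACTB control probe sets, a measure of RNA integrity, gave 3′ over 5′ ratios that reached 1.33 for MALC (lowest 1.22) and 1.54 for suspension (lowest 1.31, highest in suspension 1). For GAPDH these ratios did not overlap, MALC lying at 1.01 to 1.02 and suspension at 1.04 to 1.06. The part of RNA integrity in the results was not tested. Of 6 B cell markers 5 had a probe set, with summed signals of 27829 to 31909 in MALC and 28004 to 33433 in suspension. Marker genes of T cells, myeloid cells, platelets and NK cells had signals of at most 122, 127, 175 and 118, and those of fibroblasts and endothelium at most 347, reached by COL1A2 in suspension 2. Summed over each list, these markers read 397 to 402, 286 to 310, 494 to 521, 367 to 369 and 732 to 793 in MALC, in that order of cell types. In suspension the sums were 394 to 440, 295 to 320, 520 to 569, 400 to 425 and 865 to 1117. Above the filter and tested were 5 B cell, 4 T cell, 2 myeloid, 4 platelet, 4 NK cell and 6 fibroblast and endothelium markers. None of these passed in limma, and 4 lay under an unadjusted p of 0.05, all lower in MALC. The part of these cell types in the results was not tested.

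The rest of the G protein pathway was described by 8 gene lists, with each gene represented by its brightest probe set in the same limma fit, where 41.4% of 13765 genes were called, 18.6% higher and 22.7% lower in MALC. Counted that way, 2 RGS members of 8 tested were higher (RGS1 and RGS3) and 1 lower (RGS16), with a median log2 change of 0.12 beside −0.06 over all genes. Of 12 other RGS genes 11 had a probe set and 6 were tested, none of which passed (1 lay under an unadjusted p of 0.05, higher in MALC, 2 passed with array weights, and 1 without MALC 3 or suspension 1). Over all probe sets, calls also rose with array weights, from 13649 to 19706. RGS5, one of the 6 other RGS genes tested, averaged 269 ± 20.4 in MALC and 228 ± 53.3 in suspension. Of 9 other proteins with an RGS domain, 1 was higher and none lower (2 and 1 at an unadjusted p under 0.05). It was ARHGEF1, an exchange factor downstream of G13, at 1.28-fold, which no longer passed after removal of MALC 2 (adjusted p = 0.0645), MALC 3 (0.0559) or suspension 3 (0.0513).

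Among the alpha subunits on which RGS proteins act, 3 of 10 tested were higher and none lower (3 and 1 at an unadjusted p under 0.05). They were GNA13, GNA12 and GNAS, at 1.18-, 1.17- and 1.14-fold, and GNA12 no longer passed when MALC 1, MALC 2, suspension 2 or suspension 3 was removed (adjusted p up to 0.138). The Gi subunit genes GNAI2 and GNAI3 both had log2 changes of −0.11 and did not pass (adjusted p = 0.351 and 0.133), and GNAQ had −0.05 (0.609). Of 11 beta and gamma subunits 2 were higher and none lower, also at an unadjusted p under 0.05. Without MALC 1, 1 was lower, and lower calls over all probe sets also rose, from 6701 to 7460. GNG7, a gamma subunit, rose 2.06-fold (1448 ± 158 in MALC and 704 ± 146 in suspension, SD, n = 3 each), and GNB3 rose 1.22-fold, which no longer passed after removal of any array other than MALC 1 or suspension 2 (adjusted p up to 0.119).

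Of 6 receptor kinases and arrestins tested, GRK3 was 1.48-fold higher and GRK6 1.23-fold lower, while GRK2 had a log2 change of −0.11 (adjusted p = 0.261). GRK4 was also called lower, with 45.3, 40.5 and 41.1 in MALC and 79.6, 66.9 and 64.7 in suspension. Its MALC signals lie under the filter's 53.4, which it passed only through suspension, and it was tested in 11 of the 17 alternatives. GPSM3, which binds Gi subunits outside the receptor pathway, was the only one of 4 such modulators tested to pass, at 1.5-fold higher. Of 15 effectors 2 were higher and 1 lower, beside 41.4% of all genes called in either direction. Without MALC 1, 5 effectors were higher, and calls over all probe sets also rose, from 13649 to 15035. The adenylyl cyclase ADCY3 was 1.44-fold lower and ADCY7 1.23-fold higher, the ADCY7 call ending when MALC 2 (adjusted p = 0.0596) or suspension 2 (0.0535) was removed, and the phosphodiesterase PDE4A was 1.38-fold higher.

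RGS1 and RGS13 are known to limit signals of chemokine receptors that position B cells. Among 10 tested receptors of B cell trafficking, 4 were called higher and 1 lower in MALC. The 4 include CNR1, whose passage through the filter is described below. CXCR4 read 10106, 12883 and 13377 in MALC against 3174, 5414 and 5536 in suspension, and CXCR5 read 2134, 3049 and 3170.4 in MALC against 702, 1075 and 1012 in suspension. As with RGS1, suspension 1 was the lowest array for both. Unlike RGS1, for which MALC 1 was the highest MALC array, both had their lowest MALC signal in MALC 1. The rises of CXCR4 and CXCR5 were 2.63-fold (limma adjusted p = 0.00201) and 2.96-fold (adjusted p = 0.000983). CCR7, a receptor for lymph node chemokines, rose 3.73-fold. CNR1, a cannabinoid receptor, read 284, 408 and 425 in MALC and 21.5, 44.9 and 38.9 in suspension. It passed the filter only through MALC, since its suspension signals lie under 53.4, so its fold is not given. S1PR2, a confinement receptor of germinal centre B cells named here because it was the 1 that fell, was 1.35-fold lower and did not pass once MALC 2 (adjusted p = 0.065), MALC 3 (0.0715), suspension 2 (0.0639) or suspension 3 (0.0738) was removed.

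**Figure D4:**
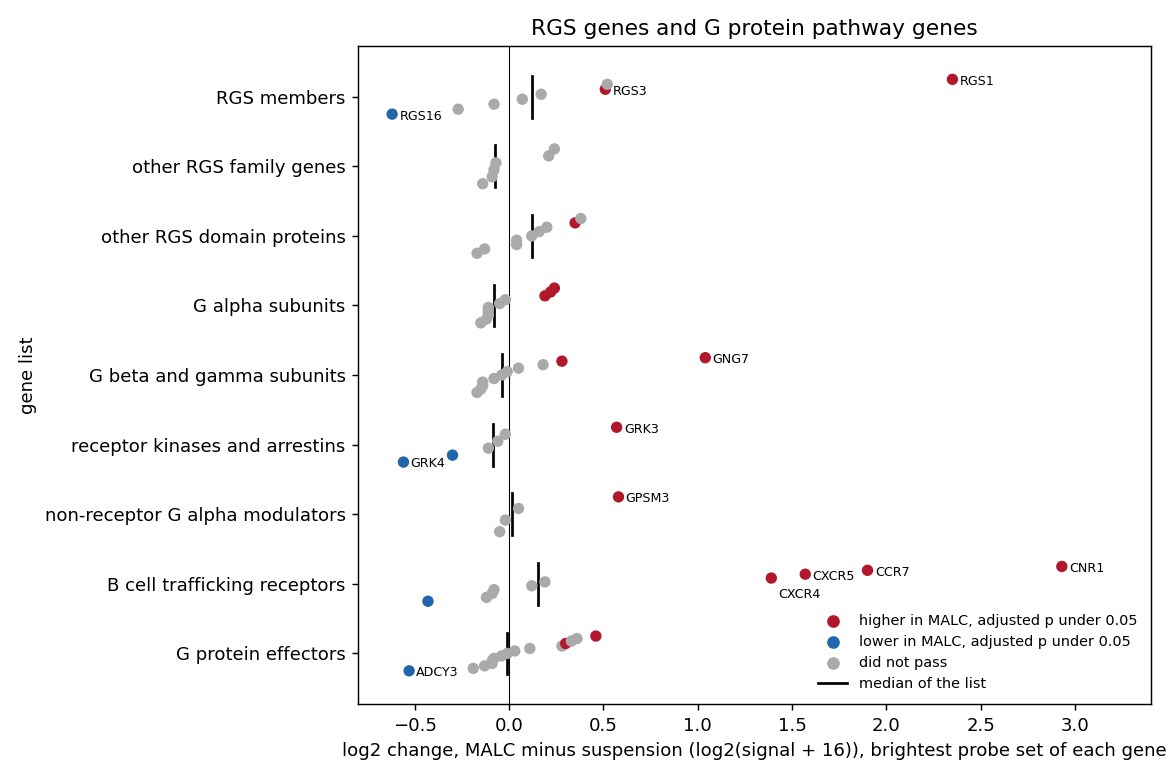
Log2 change (MALC minus suspension, log2(signal + 16)) of each tested gene by its brightest probe set, in the RGS members and 8 other gene lists. Points stand for genes, red and blue for those higher and lower in MALC at an adjusted p under 0.05, grey for those that did not pass, and bars for list medians. RGS1 stands furthest from its family, and CXCR4, CXCR5 and CCR7 have the largest called rises of the receptors other than CNR1. CNR1 passed the filter only through MALC, so its plotted position is not ranked.

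Profiles over the 6 arrays, centred on each gene's mean log2 signal, were compared between the members with the largest called rise and fall, RGS1 and RGS16, and 13764 other genes by root mean squared distance. Nearest to RGS1 were HTR2B, a serotonin receptor gene (distance 0.51), CREBRF, a regulator of CREB3 (0.513), and TAGAP, a GTPase-activating protein gene (0.531). Like RGS1, HTR2B was lowest in suspension 1, with signals of 464, 602 and 604 in MALC and 47.9, 112 and 105 in suspension. Unlike RGS1, it had its lowest MALC signal in MALC 1. Nearest to RGS16 were AKIRIN1, a nuclear protein gene (0.0423), RBM12, an RNA-binding protein gene (0.0542), and ZNF468, a zinc finger gene (0.0569). Distances were not scaled for the size of a gene's change, so those of RGS1 and RGS16 cannot be compared. AKIRIN1 read 1238, 1145 and 1012 in MALC and 1459, 1844 and 2003 in suspension, with suspension 1 nearest to MALC as for RGS16. Such distances rest on 6 arrays that share 2 culture forms and are a description only.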

How the data were processed

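The deposited table gives linear intensities, as made by the authors, for 54675 probe sets on each of 6 arrays. The submitters' processing notes name MAS5 and no other tool, and neither its role nor any scaling between arrays is given in the sources used here. A change common to all transcripts would go unseen if such scaling was done. Per the labels' protocols, labelling with biotin started from 200 ng of Trizol-extracted RNA.

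Here 62 control probe sets were left out, intensities were set to log2(value + 16), and probe sets under the 40th percentile of the mean were dropped. Fold changes are on that scale and understate those of dim probe sets. MALC was compared with suspension in limma 3.58.1 (R 4.3.3; lmFit, then eBayes with trend, two-sided). P-values were adjusted by Benjamini-Hochberg over all 32768 probe sets, with a threshold of 0.05. Symbols came from the platform annotation, updated through RefSeq, which held 41037 of the 41091 probe sets with 1 symbol (1801 had several and 11721 none). The fit was tested on simulated data. The RGS members, gene lists and tests were chosen with earlier results of these data known. All members were named, with up to 3 called genes of largest change in each list, and CXCR4, CXCR5, GNAI2, GNAI3, GNAQ, GNA13 and GRK2; ARRB2 was not analysed here, and RGS5 and S1PR2 were named after their values were seen. There were 17 alternatives, 1 of them added after seeing the data.

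The titles number the samples without saying what a number marks. Same-numbered MALC and suspension arrays deviated together from their group means, with correlations of 0.2452, 0.168 and 0.1397, and crossing numbers 2 and 3 gave 0.14 and 0.1752. Deviations from a group mean depend on each other, and the arrays numbered 1 stood apart in both groups. These correlations therefore cannot show whether numbers 2 and 3 mark pairs. Blocking on the number was run as an alternative only.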

Additional observations from a re-analysis of the deposited data

How the results depend on the processing

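Limits: 3 arrays a group, samples 2 and 3 nearly alike, no detection calls, and an unknown scaling; fits that drop or down-weight the arrays numbered 1 rest on a small spread (array weights 0.29 and 0.311). RGS1 216834_at and RGS3 203823_at passed in all 17 alternatives and RGS1 202988_s_at in all 16 that tested it. The counts of RGS probe sets were 3 higher and 2 lower. They became 5 and 5 with array weights and 5 and 6 without both arrays numbered 1. Calls over all probe sets also rose in these fits, from 13649 to 19706 and 18159 in that order. Lower RGS calls were 1 with 1 probe set a gene. Array weights and the removal of both arrays numbered 1 each added RGS14 38290_at and RGS19 as higher and RGS3 220300_at, RGS13 210258_at and RGS13 1568752_s_at as lower, and RGS10 204319_s_at was lower in the fit without both arrays numbered 1. Without suspension 2 and suspension 3, chosen after seeing the data and assuming that the lone suspension array varies like MALC, limma called 4 higher, adding RGS13 1568751_at (0.60, adjusted p = 0.0307), and 0 lower, with 0 at an unadjusted p under 0.05. Leaving out 1 array gave 3 to 4 higher and 1 to 4 lower. With the sample number as a replicate block 3 were higher and 3 lower; the RGS10 204319_s_at call changed (adjusted p = 0.0253) and no other RGS call did. Over all probe sets, 13649 were called, 6948 higher and 6701 lower. These were 5877, 2611 and 3266 with 1 probe set a gene, where fewer were tested, and 6510, 3948 and 2562 without suspension 2 and suspension 3; 10306 were lower with array weights, and 4411 to 7460 with 1 array left out. The shifts in context genes are to be read beside those over all probe sets given above. Context genes numbered 14 higher and 4 lower, in the fit where 41.4% of all genes tested were called. They were 25 and 10 with array weights and 9 and 1 without suspension 2 and suspension 3; 23 were higher without both arrays numbered 1, and 2 to 5 lower with 1 array left out. The cause of these shifts was not tested.

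Sign changes in RGS probe sets or named genes occurred only where the main call had not passed. RGS13 210258_at had 0.0004 after quantile normalization and 0.13 without suspension 2 and suspension 3, where RGS13 1568752_s_at had 0.01, RGS14 38290_at −0.002 and RGS14 211021_s_at 0.03. RGS13 1568751_at had −0.11 with array weights and −0.16 without both arrays numbered 1, where RGS14 204280_at had 0.04 and 0.07. With 1 array left out, RGS13 1568751_at ranged from −0.10 to 0.28, RGS14 204280_at from −0.07 to 0.04, RGS14 211021_s_at from −0.07 to 0.0008 and GNAQ from −0.09 to 0.02. GNAQ was 0.003 with array weights and 0.02 without both arrays numbered 1, where GNAI2 was 0.004.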
